A study of Homo sapiens with 4 samples.

Results

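Chromatin accessibility was examined at 49 genes of histone methyltransferases, histone demethylases and related SET-domain proteins. Histone methyltransferases add methyl groups to histones and demethylases take them off. The list was drawn up by gene name, with earlier results of these data known, and KMT5A, the gene that was knocked out, was not on it. Every peak of the first deposited table whose nearest gene bore 1 of the 49 names was taken, which gave 80 of the 20556 peaks. Of the 49 genes, 41 had at least 1 peak, 40 had a promoter peak, and NSD1 had a single peak outside promoters. EHMT2, SETD1B, PRMT5, KDM7A, SETDB2, KDM5B, SETD3 and SETD2 had none under their names. Below, the promoter of a gene means the strongest promoter peak under its own name, and groups and ranks cover the genes that have one. Promoter means that the annotation places the peak within 3 kb of a start site. Of the 80 peaks, 52 lay at promoters, 17 in introns, 3 in exons and 8 in distal intergenic sequence. The samples were Kasumi-1 cells, an acute myeloid leukaemia line. They comprised SETD8 knockout cells, edited by CRISPR/Cas9 with a guide labelled sgSETD8 (2 libraries), and control cells with a guide labelled sgNT and a genotype given as WT (2 libraries). SETD8 is the older name of KMT5A, which monomethylates lysine 20 of histone H4. The study asked how the loss of this enzyme alters accessibility at enhancers. All libraries come from 1 cell line. The labels do not say whether the knockout cells were a pool or a clone, or whether the libraries of a group came from separate cultures.

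Histone methylation is written by SET-domain enzymes on lysine, by DOT1L on the lysine of the globular core of H3, and by PRMT enzymes on arginine. It is erased by the amine oxidases KDM1A and KDM1B and by the JmjC-domain demethylases. Methylation of H3K4 marks promoters and enhancers, that of H3K36 and H3K79 marks transcribed genes, and that of H3K9 marks silent chromatin. Several of these genes are altered in acute myeloid leukaemia, among them KMT2A, which forms fusion genes, and KDM6A, which is lost by mutation.

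ATAC-seq counts cuts of a transposase in open chromatin, and peak coordinates are given in hg38. The first table gives 1 log2 fold change per peak. It names neither its columns nor its libraries, and its direction, knockout against control, is known only from its name. In the second table the levels of the libraries numbered 2 stand apart, so that knockout and control reads can be shown for each peak. Those libraries held 2091322 knockout reads and 5345685 control reads in peaks, and control reads had been multiplied by 0.918 before deposit. Control reads are given below after this scaling. The ratio of knockout to scaled control reads was 0.426, and 8292 of 8295 promoters were lower in the knockout. With 1 library per group, a lower level across all peaks and a smaller library cannot be told apart. Across the strongest promoter peak of each gene the median fold change was -0.93 for the first table (10187 genes) and -1.26 for the second (8295 genes). Values of single genes are therefore set beside these medians. An adjusted p of 0.05 was passed by 0.00% of peaks in the authors' first deposited table and by none in the authors' second deposited table. Unadjusted, 329 of 20556 peaks of the first and 19 of 13577 of the second fell under 0.05. The promoter of KMT5A itself stood at -0.82 in the authors' first deposited table. In the second table it had 251 knockout reads and 685 control reads, a fold change of -1.45. It thus stood above the promoter median in the first table and below it in the second. Accessibility of its promoter does not show whether the gene was edited and so does not check the labels. Of 8 markers of myeloid progenitors and blasts, 4 had a promoter peak (CD34, CEBPA, KIT and SPI1), against 2 of 4 T cell markers, 1 of 3 B cell markers, 0 of 3 erythroid, 1 of 3 epithelial, 0 of 2 hepatocyte and 2 of 3 fibroblast markers. By these counts the myeloid list did not stand apart, and MPO, CD33, ELANE and RUNX1T1 had no promoter peak under their names.

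Promoter sequences are shown for the genes at either end of the order. Whether sequence and fold change are linked was not tested. The order was the mean of the fold changes of both tables, each taken relative to its promoter median. SMYD5 (-0.36), KDM2A (-0.26) and KDM3A (-0.19) were lowest, and KDM5A (0.57), SMYD2 (0.46) and DOT1L were highest, DOT1L having no entry in the sequence table. Each window runs from 250 bases before to 50 bases after a RefSeq start site in GRCh38.p14 and lies wholly inside the first-table peak of its gene. The windows are chr2:73213995-73214294 (plus strand) for SMYD5, chr11:67239764-67240063 (plus) for KDM2A, chr2:86441121-86441420 (plus) for KDM3A, chr1:214280909-214281208 (plus) for SMYD2 and chr12:389271-389570 (minus) for KDM5A. Capitals mark matches, on either strand, to the motifs described next.
SMYD5: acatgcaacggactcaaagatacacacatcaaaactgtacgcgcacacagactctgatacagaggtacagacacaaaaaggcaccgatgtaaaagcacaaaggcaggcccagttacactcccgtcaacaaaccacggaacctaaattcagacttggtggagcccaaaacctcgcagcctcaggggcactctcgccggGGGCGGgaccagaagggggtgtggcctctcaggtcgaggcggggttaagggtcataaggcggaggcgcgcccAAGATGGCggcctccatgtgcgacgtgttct
KDM2A: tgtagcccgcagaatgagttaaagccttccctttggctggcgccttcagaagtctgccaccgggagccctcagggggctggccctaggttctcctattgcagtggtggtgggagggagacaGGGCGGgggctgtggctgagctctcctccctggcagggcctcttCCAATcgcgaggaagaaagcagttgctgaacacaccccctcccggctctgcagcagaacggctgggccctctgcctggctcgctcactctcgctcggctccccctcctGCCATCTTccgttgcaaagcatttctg
KDM3A: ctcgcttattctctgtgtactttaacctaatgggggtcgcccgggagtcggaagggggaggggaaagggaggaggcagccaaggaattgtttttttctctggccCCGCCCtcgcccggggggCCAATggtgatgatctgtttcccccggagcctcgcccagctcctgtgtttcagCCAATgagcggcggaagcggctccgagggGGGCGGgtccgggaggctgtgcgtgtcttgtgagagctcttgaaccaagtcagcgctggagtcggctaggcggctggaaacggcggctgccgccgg
SMYD2: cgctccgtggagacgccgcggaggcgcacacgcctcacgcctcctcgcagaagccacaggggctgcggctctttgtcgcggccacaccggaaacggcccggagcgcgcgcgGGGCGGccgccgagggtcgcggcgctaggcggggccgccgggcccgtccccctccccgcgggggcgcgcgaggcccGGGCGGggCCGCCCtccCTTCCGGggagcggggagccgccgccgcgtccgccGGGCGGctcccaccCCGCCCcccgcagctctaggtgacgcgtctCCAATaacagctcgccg
KDM5A: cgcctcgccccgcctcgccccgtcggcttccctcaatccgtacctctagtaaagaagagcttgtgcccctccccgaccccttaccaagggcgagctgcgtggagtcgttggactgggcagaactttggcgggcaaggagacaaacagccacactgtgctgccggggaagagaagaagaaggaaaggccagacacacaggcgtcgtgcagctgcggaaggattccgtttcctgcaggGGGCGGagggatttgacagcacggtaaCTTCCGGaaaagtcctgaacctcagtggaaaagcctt

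The 7 motifs searched were an ETS core (CCGGAAG), NRF1 (GCGCATGC), a CCAAT box (CCAAT), an SP/KLF box (GGGCGG), RUNX (TGTGGT), an E-box (CACGTG) and YY1 (AAGATGGC). No matches of different motifs overlapped in these 5 windows. The SMYD5 window held an SP/KLF and a YY1 match, the KDM2A window a CCAAT, an SP/KLF and a YY1 match, and the KDM3A window 2 CCAAT and 2 SP/KLF matches. In the SMYD2 window 5 SP/KLF matches stood beside an ETS and a CCAAT match, and the KDM5A window held an ETS and an SP/KLF match. Over all members with a promoter peak and an entry, 30 of 38 windows held the SP/KLF box, against 71.9% of the 7831 windows of genes with a promoter peak and 45.0% of all 35116 windows. The YY1 letters were found in 6 of 38 windows (15.8%), those of KDM2A, KDM5C, KMT2B, PRMT1, SMYD5 and SUV39H2, against 5.35% and 2.89%. ETS cores were found in 4 of 38 (10.5%), against 19.8% and 10.3%. The E-box was found in 6 (15.8%, against 10.0% and 7.26%), the CCAAT box in 13 (34.2%, against 37.5% and 34.6%), RUNX in 4 (10.5%, against 9.40% and 13.1%) and NRF1 in 1 (2.63%, against 5.85% and 3.05%). Median GC content was 66.2% in the member windows and 65.7% in those of all genes with a promoter peak. A match describes the letters only, and not every member window lay inside its peak. Those of KDM6B, NSD2 and SETD5 had 0 bases inside, that of KMT2C had 2, and some others lay only partly inside.

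Promoters of these genes had lower levels in the knockout, by about as much as the median promoter in the first table and by less in the second. The median over 40 members was -0.96 in the first table (quartiles -1.08 and -0.71), against -0.93 over all genes (quartiles -1.19 and -0.68). Over the 37 members whose peak overlapped a second-table peak by 1 bp or more, the median was -1.10 in the second table (quartiles -1.24 and -0.93), against -1.26 over all genes (quartiles -1.44 and -1.08). Members minus all genes came to -0.03 in the first table, whereas the second gave 0.16. KDM5A, at 0.10 in the authors' first deposited table, was the only strongest promoter peak of a member above 0 there, and none was above 0 in the second. Lower by at least 1, which is a 2-fold lower level, were 16 of 40 members in the first table (40%, where 43.3% of all genes were) and 27 of 37 in the second (73.0%, where 83.4% were). The share in the first table is near the background. Adjusted p-values of the member promoters in the authors' first deposited table ran between 0.731 and 0.952, and those in the authors' second deposited table between 0.578 and 0.699. SETD5 alone, 1 of 80 member peaks, had an unadjusted p under 0.05 in the authors' first deposited table (p = 0.0409), where 329 of all 20556 peaks did. In the second, 0 of the 43 joined peaks did, where 19 of all 13577 peaks did. The first-table count is near the background and does not set SETD5 apart.

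**Figure D1:**
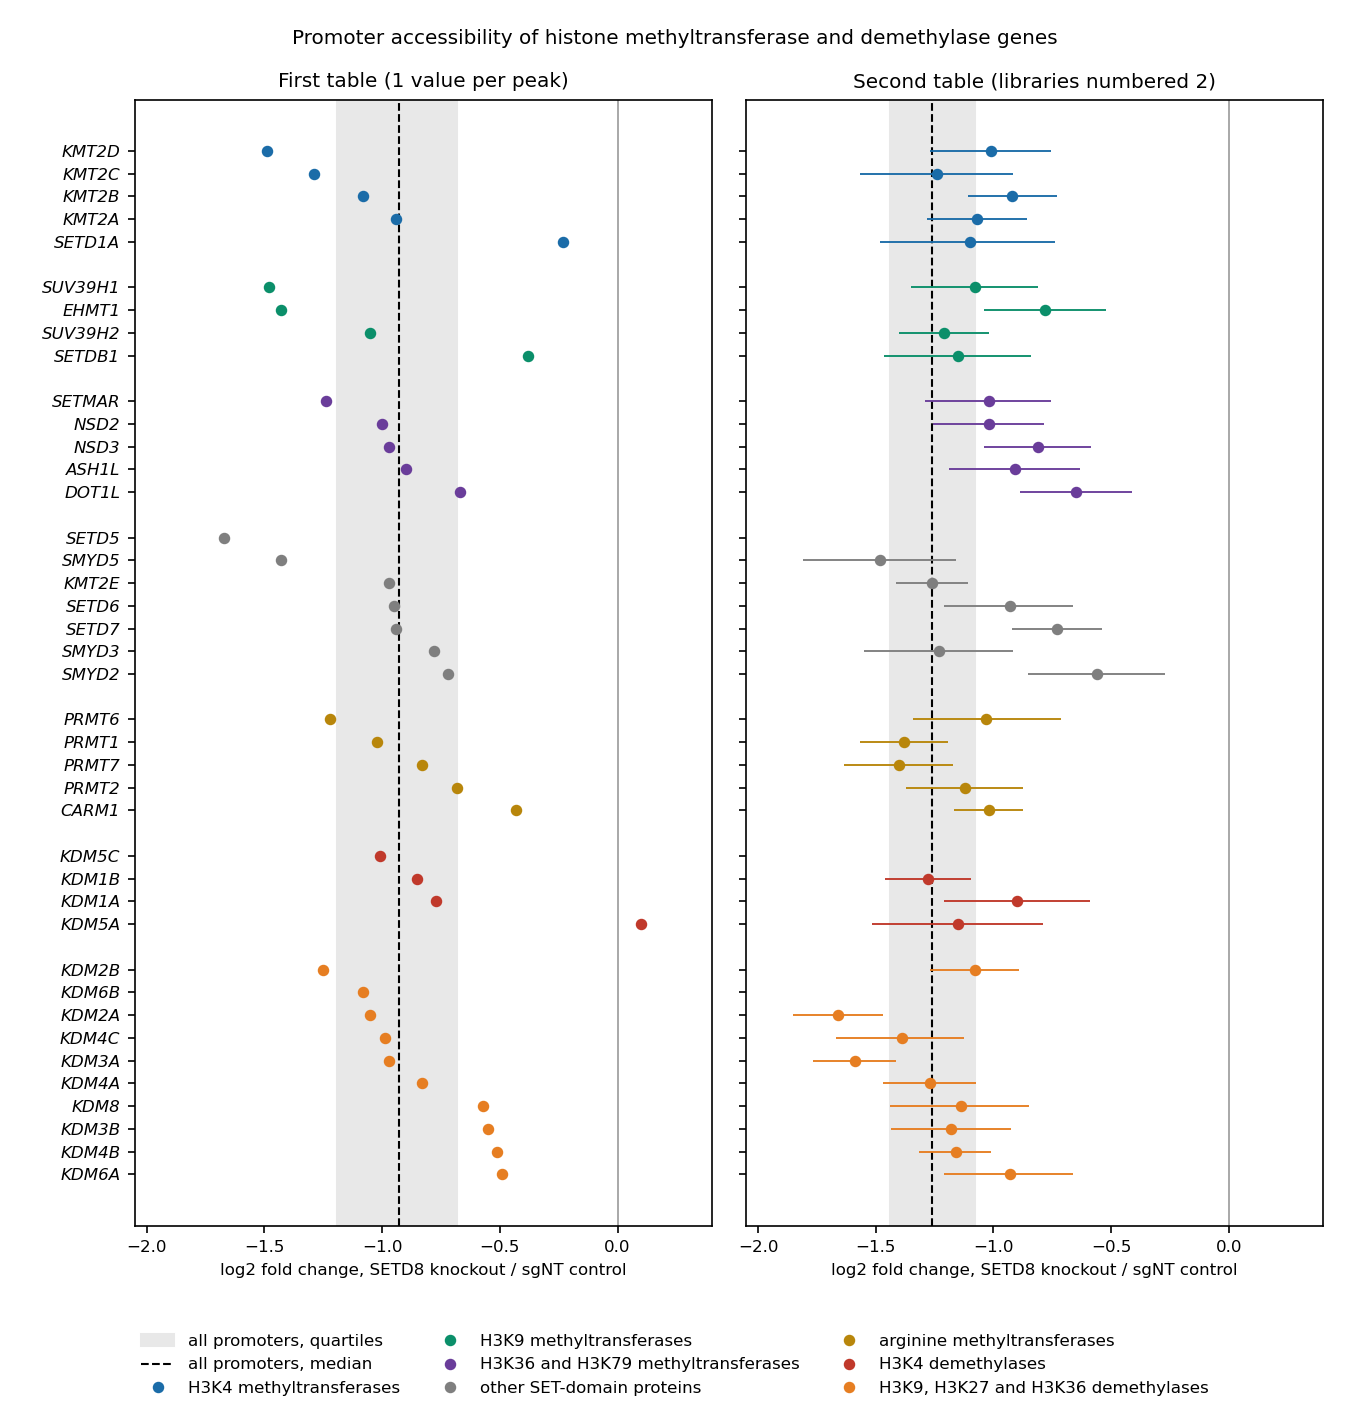
Log2 fold change (SETD8 knockout over sgNT control) of the strongest promoter peak of each of 40 genes, grouped by role; left the first table, right the second with 95% counting intervals as bars (37 genes). The dashed line is the median and the grey band the quartiles over the promoters of all genes; in the second table the 5 H3K4, 4 H3K9 and 5 H3K36 and H3K79 methyltransferase genes all sit right of the dashed line at -1.26, whereas KDM2A and KDM3A sit left of it.

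Read depth sets what can be told apart. In the second table the member promoters held 88 to 553 reads in the knockout library (median 190) and 189 to 1176 in the control library (median 402). Each fold change there carries a 95% counting interval, exact and covering counting error only, whose half-width was 0.256 at the median member. By this interval 12 of 37 members lay wholly above the promoter median of -1.26 (32.4%, where 17.0% of all genes did) and 2 lay wholly below it (5.41%, where 16.7% did). The 12 were SMYD2, DOT1L, SETD7, EHMT1, NSD3, KDM1A, ASH1L, KMT2B, KDM6A, SETD6, NSD2 and CARM1, and the 2 were KDM2A and KDM3A. With 1 library per group these intervals hold no spread between cultures. Peaks near member starts that are not under the member's own name are not counted here, and they lay on both sides of the median. Methyltransferase genes made up 10 of the 12. Of 25 methyltransferase promoters 21 were above the promoter median and 3 below it, with a median of -1.03, and of 12 demethylase promoters 7 were above and 5 below, with a median of -1.17. In the first table the order was the other way, with medians of -0.97 over 26 methyltransferase promoters and -0.84 over 14 demethylase promoters. The deposited mean level of the first table was taken off the log2 scale, and its scaling is not stated. It was 268 at the median member promoter and 236 at the median promoter of all genes. Of 40 members, 22 stood above that median of all genes.

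**Figure D2:**
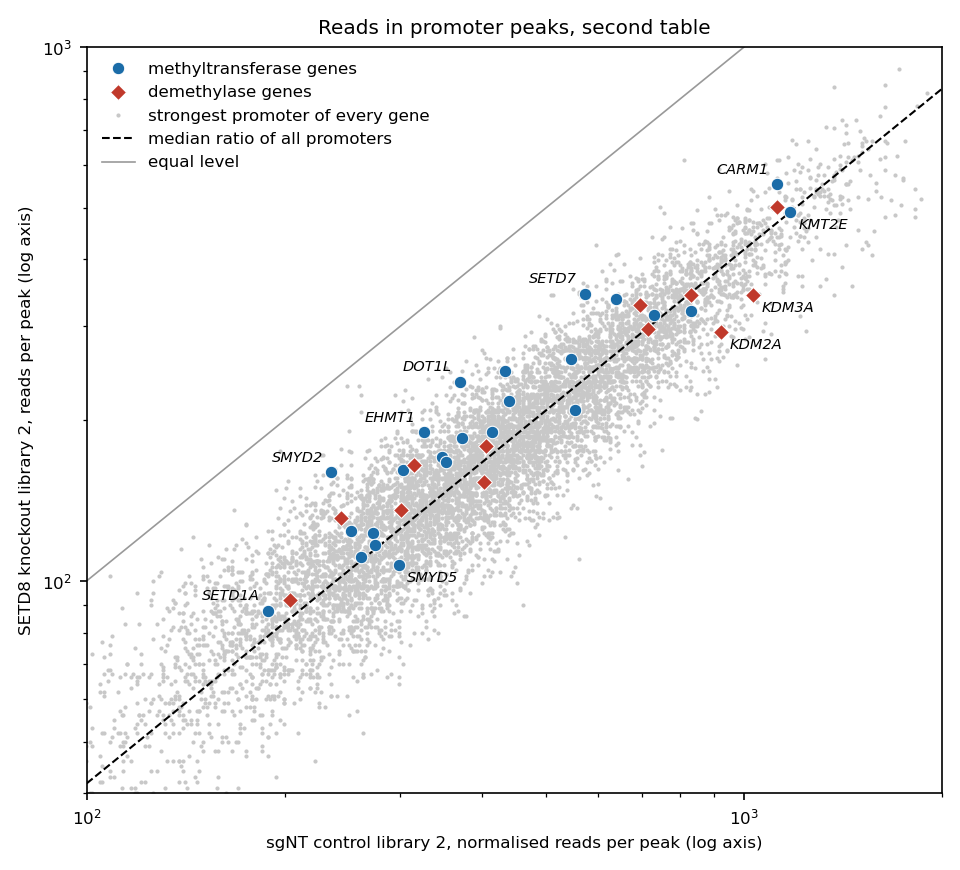
Reads per promoter peak in the second table, SETD8 knockout library 2 (vertical, log axis) against sgNT control library 2 (horizontal, scaled reads, log axis). Circles are methyltransferase and diamonds demethylase genes, small grey points the strongest promoter of every gene, of which those outside the axes are not drawn; the dashed line is the median ratio of all promoters. All 37 members lie under the line of equal level. SMYD2, DOT1L and SETD7 lie farthest above the dashed line, and 8 members lie below it, KDM2A and KDM3A among them.

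Among the H3K4 methyltransferase genes, the 4 KMT2 genes were below the promoter median in the first table, KMT2A by only 0.01, and none of the 5 was below that of the second. KMT2D, which with KMT2C monomethylates H3K4 at enhancers, had the lowest value of the group, -1.49 in the authors' first deposited table, at its peak on chromosome 12 (49060357 to 49061138). That peak held 185 knockout reads and 372 control reads, a fold change of -1.01 (95% counting interval -1.27 to -0.76). SETD1A, which acts in bulk H3K4 trimethylation, had the highest, -0.23 in the authors' first deposited table, at its peak on chromosome 16 (30957020 to 30957984). It held 88 knockout reads and 189 control reads, a fold change of -1.10 (-1.48 to -0.74). KMT2D thus stood far below SETD1A in the first table and slightly above it in the second, where their intervals overlap. The gap of the first table is not seen in the second. KMT2A, the gene rearranged in leukaemias, stood at -0.94, KMT2B at -1.08 and KMT2C at -1.29 in the authors' first deposited table. Their second-table values were -1.07 for KMT2A (260 knockout and 545 control reads), -0.92 for KMT2B (338 knockout and 639 control reads) and -1.24 for KMT2C (111 knockout and 261 control reads). All 5 were above the second-table promoter median, KMT2C by only 0.02, and 4 of 5 were below that of the first.

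Of the 6 H3K9 methyltransferase genes, 4 had a promoter peak under their own name, of which 3 were below the promoter median in the first table and 4 above that of the second. The peak at the start of SETDB2, which bears a neighbour's name, was at -1.42 in the second table, below its median. EHMT1 encodes the partner of EHMT2 in the complex that adds mono- and dimethyl marks to H3K9. Its promoter on chromosome 9 (137618349 to 137619033) stood at -1.43 in the authors' first deposited table, which is -0.50 relative to the promoter median. It held 190 knockout reads and 326 control reads, a fold change of -0.78 (-1.04 to -0.52) that lay 0.48 above the median of the second table. SUV39H1, a writer of H3K9 trimethylation in pericentric heterochromatin, was lowest, at -1.48 in the authors' first deposited table, on the X chromosome (48696214 to 48696826). There were 167 knockout reads and 352 control reads, a fold change of -1.08 (-1.35 to -0.81). SETDB1, which silences retroelements, was highest in the authors' first deposited table at -0.38, on chromosome 1 (150925965 to 150926622). Its second-table value was -1.15 (-1.46 to -0.84), from 123 knockout and 272 control reads. SUV39H2, the paralogue of SUV39H1, stood at -1.05 in the authors' first deposited table and had 315 knockout and 729 control reads, a fold change of -1.21.

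Promoters of H3K36 and H3K79 methyltransferase genes were the least lowered role group of the second table, with a median of -0.91 over 5 genes and 4 counting intervals wholly above the promoter median. In the first table their median was -0.97, which is -0.04 relative to all promoters. DOT1L, the H3K79 methyltransferase on which leukaemias with KMT2A fusions depend, was highest in both, at -0.67 in the authors' first deposited table. Its peak on chromosome 19 (2163690 to 2164011) held 236 knockout reads and 370 control reads, a fold change of -0.65 (-0.89 to -0.41). SETMAR, a SET domain fused to a transposase, was lowest of the group at -1.24 in the authors' first deposited table, on chromosome 3 (4303231 to 4304031). It had 171 knockout reads and 347 control reads, a fold change of -1.02 (-1.29 to -0.76). NSD2 and NSD3, writers of H3K36 dimethylation, stood at -1.0 and -0.97, and ASH1L, another H3K36 enzyme, at -0.90 in the authors' first deposited table. Their second-table values were -1.02 for NSD2 (217 knockout and 440 control reads), -0.81 for NSD3 (247 knockout and 434 control reads) and -0.91 for ASH1L (161 knockout and 302 control reads).

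Other SET-domain genes spread the most of all role groups in the second table, between -1.48 and -0.56. SMYD2, whose product methylates the tumour suppressors p53 and RB, had the highest second-table value among the strongest promoter peaks. Its peak on chromosome 1 (214280705 to 214281771) held 160 knockout reads and 236 control reads, a fold change of -0.56 (-0.85 to -0.27). It was also the highest of this group in the authors' first deposited table, at -0.72. SETD5 had the lowest value among the strongest promoter peaks, -1.67 in the authors' first deposited table. This was a weak peak on chromosome 3 (9422761 to 9423355) with a mean level of 50.2 and no overlapping second-table peak. It lies inside the gene, whose span is 9397615 to 9478154, and covers 0 bases of the RefSeq promoter window. SMYD5 was low in both, at -1.43 in the authors' first deposited table and with 107 knockout against 298 control reads (-1.48, -1.81 to -1.16). Its stretch of chromosome 2 was low as a whole: other peaks of its 5 Mb bin had a first-table median of -1.34 and a second-table median of -1.63. Relative to that bin SMYD5 stood at -0.09 and 0.15. SETD7, which methylates H3K4 and many other proteins, was at -0.94 in the authors' first deposited table and at -0.73 (-0.92 to -0.54) in the second, from 345 knockout and 572 control reads. SETD6, which methylates the NF-kappaB subunit RELA, was at -0.95 in the authors' first deposited table and at -0.93 in the second (165 knockout and 315 control reads). KMT2E, a SET-domain protein without known catalytic activity, had the strongest member promoter with a mean level of 1361 and followed the promoter medians, at -0.97 in the authors' first deposited table and at -1.26 in the second (491 knockout and 1176 control reads). SMYD3, which methylates the kinase MAP3K2, was at -0.78 in the authors' first deposited table and at -1.23 in the second (117 knockout and 274 control reads).

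Arginine methyltransferase genes had a first-table group median of -0.83 and a second-table group median of -1.12, which are 0.10 and 0.14 above the promoter medians. PRMT5, whose start peak bears a neighbour's name, is not counted in them. That peak was at -0.29 in the authors' first deposited table and at -1.58 in the second, below the second-table median. CARM1, a coactivator that methylates H3, was highest at -0.43 in the authors' first deposited table, on chromosome 19 (10870957 to 10871518). It had the most knockout reads of all members, 553, against 1121 control reads, a fold change of -1.02 (-1.17 to -0.87). PRMT6, which methylates an arginine near H3K4, was lowest at -1.22 in the authors' first deposited table, on chromosome 1 (107056474 to 107057765). It had 124 knockout reads and 252 control reads, a fold change of -1.03 (-1.34 to -0.71). PRMT1, the main writer of asymmetric arginine dimethylation, was at -1.02 in the authors' first deposited table and at -1.38 in the second (320 knockout and 832 control reads). PRMT7, a writer of monomethylarginine, and PRMT2 were at -0.83 and -0.68 in the authors' first deposited table, with second-table values of -1.40 for PRMT7 (209 knockout and 553 control reads) and -1.12 for PRMT2 (190 knockout and 413 control reads).

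Of the H3K4 demethylase genes, KDM5A had the highest first-table value among the strongest promoter peaks, whereas in the second table it lay near the promoter median. KDM5A removes tri- and dimethyl marks and forms fusion genes in childhood myeloid leukaemia. Its promoter on chromosome 12 (388998 to 389902) stood at 0.10 in the authors' first deposited table (unadjusted p = 0.925), 1.03 above the promoter median. In the second table it held 92 knockout reads and 204 control reads, a fold change of -1.15 (-1.51 to -0.79), 0.11 above the median. KDM5C was lowest at -1.01 in the authors' first deposited table, on the X chromosome (53224935 to 53225740), and had no overlapping second-table peak. KDM1A, or LSD1, the target of inhibitors tested in acute myeloid leukaemia, was at -0.77 in the authors' first deposited table. It had 131 knockout reads and 244 control reads, a fold change of -0.90 (-1.21 to -0.59). KDM1B, its paralogue, was at -0.85 in the authors' first deposited table and at -1.28 in the second (343 knockout and 832 control reads).

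Demethylase genes for H3K9, H3K27 and H3K36 included KDM2A and KDM3A, the 2 of 37 joined promoters whose counting interval lay wholly below the promoter median. KDM2A, an H3K36 demethylase that binds unmethylated CpG islands, stood at -1.05 in the authors' first deposited table at its strongest promoter peak (chromosome 11, 67239392 to 67240160). It held 292 knockout reads and 923 control reads, a fold change of -1.66 (-1.85 to -1.47). The other peaks of its 5 Mb bin had a first-table median of -0.92 and a second-table median of -1.16, relative to which KDM2A stood at -0.14 and -0.50. KDM3A, an H3K9 demethylase induced by hypoxia, was at -0.97 in the authors' first deposited table and at -1.59 (-1.77 to -1.41) in the second, from 343 knockout and 1031 control reads. Its 5 Mb bin on chromosome 2 was itself low, with medians of -1.40 and -1.49, relative to which KDM3A stood at 0.43 and -0.10. KDM2B, the paralogue that recruits a Polycomb complex to CpG islands, was lowest of the group at -1.25 in the authors' first deposited table. Its second-table value was -1.08 (329 knockout and 695 control reads). This peak lies 2657 bp from its annotated start. A weaker KDM2B peak that covers a start stood at -0.76 in the authors' first deposited table and at -0.44 in the second. KDM6A, the H3K27 demethylase UTX, was highest at -0.49 in the authors' first deposited table, on the X chromosome (44872503 to 44873250). It held 165 knockout reads and 315 control reads, a fold change of -0.93 (-1.21 to -0.66). The H3K9 and H3K36 demethylase genes KDM4A, KDM4B and KDM4C were at -0.83, -0.51 and -0.99 in the authors' first deposited table. In the second table KDM4A was at -1.27 (296 knockout and 714 control reads), KDM4B at -1.16 (501 knockout and 1121 control reads) and KDM4C at -1.39 (153 knockout and 402 control reads). KDM3B, the paralogue of KDM3A, was at -0.55 in the authors' first deposited table and at -1.18 in the second (179 knockout and 404 control reads). KDM8 was at -0.57 in the authors' first deposited table and at -1.14 in the second (136 knockout and 300.2 control reads). KDM6B, the inducible H3K27 demethylase, was at -1.08 in the authors' first deposited table and had no overlapping second-table peak. Its peak was annotated at -1132 bp from a start.

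Whether the tables share libraries is not stated, so their values are set side by side and not correlated. Below the promoter median in both were 5 of 37 members (13.5%, where 27.9% of all joined genes were): SMYD5, KDM2A, KDM3A, PRMT1 and KDM4C. Above it in both were 14 (37.8%, where 26.4% were), among them SMYD2, DOT1L, KDM6A, CARM1, SETD1A and KDM5A. Relative to the other peaks of their 5 Mb bins, those named stood in the first table at 0.25, -0.02, 0.375, 0.225, 0.68 and 0.99. In the second they stood at 0.73, 0.48, 0.17, 0.165, 0.17 and 0.035, in the same order. Among these 37, the tables differed most at EHMT1, KMT2D and SUV39H1, low in the first and above the median in the second, and at KDM5A, whose gap to the median was 1.03 in the first and 0.11 in the second.

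**Figure D3:**
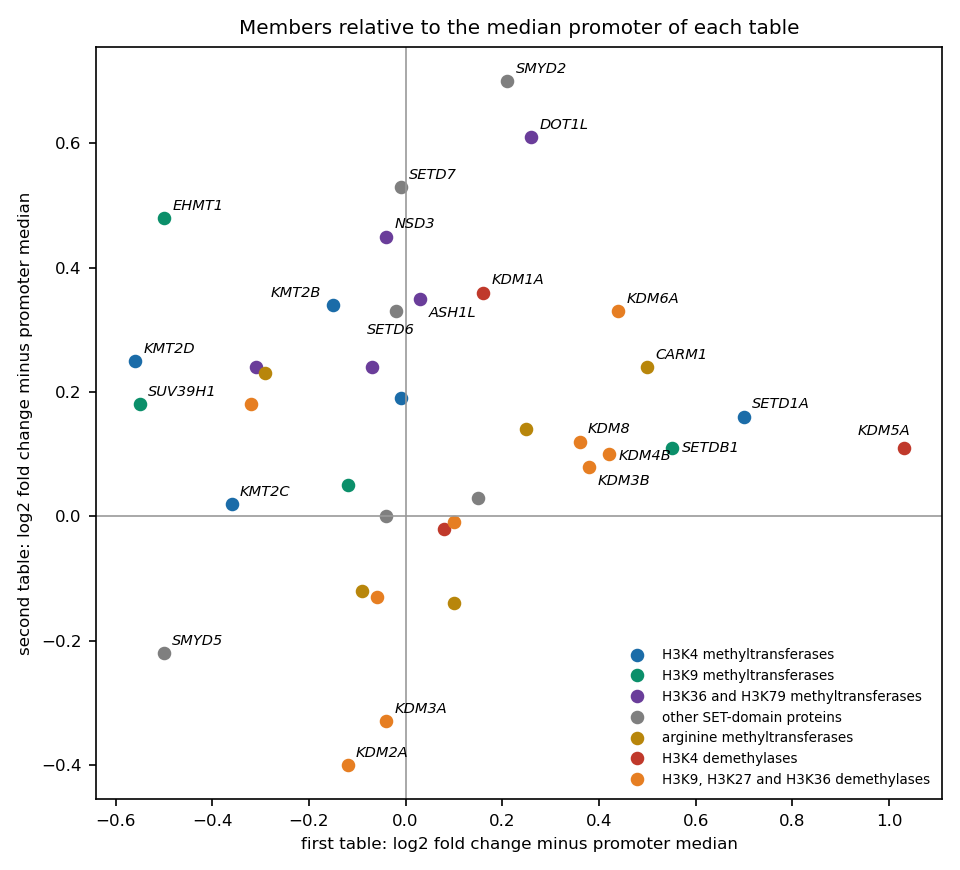
Fold change of 37 member promoters minus the promoter median, first table (horizontal, log2) against second table (vertical, log2); each point is a gene, coloured by role. Of the 37 points 28 lie above the horizontal zero line and SMYD5, KDM2A and KDM3A are among the 5 below both zero lines.

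Several of these genes have more than 1 promoter peak, and values within a gene could differ. There were 12 further promoter peaks at 10 genes, of which 2 joined a second-table peak. At KDM2A the peak over the first start of the gene (67118854 to 67119501) stood at -0.96 in the authors' first deposited table. It held 399 knockout reads and 760 control reads, a fold change of -0.93 (-1.11 to -0.76). This interval does not overlap that of the internal start described above (-1.85 to -1.47), which had more control and fewer knockout reads. At KDM2B the peak on chromosome 12 at 121536741 to 121537923 stood at -0.76 in the authors' first deposited table. With 184 knockout and 249 control reads it was at -0.44 (-0.71 to -0.16) in the second table, above the interval of the stronger KDM2B peak (-1.27 to -0.89), which lies 2657 bp from its annotated start. The other 10 were weaker, with mean levels between 32.5 and 125. They ranged from -1.49 for a peak of KMT2A to 0.22 for a peak of SMYD3 in the authors' first deposited table.

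Outside promoters 28 peaks named 14 of the genes, with a median of -0.71 in the first table against -0.76 over the 8769 non-promoter peaks. Lower by at least 1 were 8 of 28 (28.6%, where 34.8% of all non-promoter peaks were), and 5 of 28 were above 0 (17.9%, where 13.1% were). The strongest was an intronic peak, annotated at -29689 bp from a start of KMT2E, on chromosome 7 (104983672 to 104984501), with a mean level of 838 and a value of -1.54 in the authors' first deposited table. It held 177 knockout reads and 393 control reads, a fold change of -1.15 (-1.41 to -0.90). The lowest was an intronic peak of KDM1B on chromosome 6 (18215171 to 18215856) at -1.82 in the authors' first deposited table, with an unadjusted p of 0.0595. Intronic peaks of KDM2B (-1.45 and -1.33), KDM4B (-1.16) and KDM8 (-1.34), an exonic peak near KDM4C (-1.37) and a distal peak near SMYD2 (-1.39) were the others lower by at least 1 in the authors' first deposited table. Second-table peaks overlapped 4 of the 28. Besides that of KMT2E these were at KDM2B (-1.24, from 88 knockout and 208 control reads), KDM4B (-1.15, 125 knockout and 278 control reads) and a distal peak near KDM4C (-1.49, 185 knockout and 519 control reads). The last stood at -0.75 in the authors' first deposited table. The 5 peaks above 0 were all under the median level of the table and joined no second-table peak. They were in introns of SETD7 (1.13), KMT2E (0.71), KDM4C (0.09) and SMYD3 (0.01) and at a distal site 274328 bp from a start of KDM4C (0.84) in the authors' first deposited table. A peak is named after the closest gene, which it may not regulate.

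**Figure D4:**
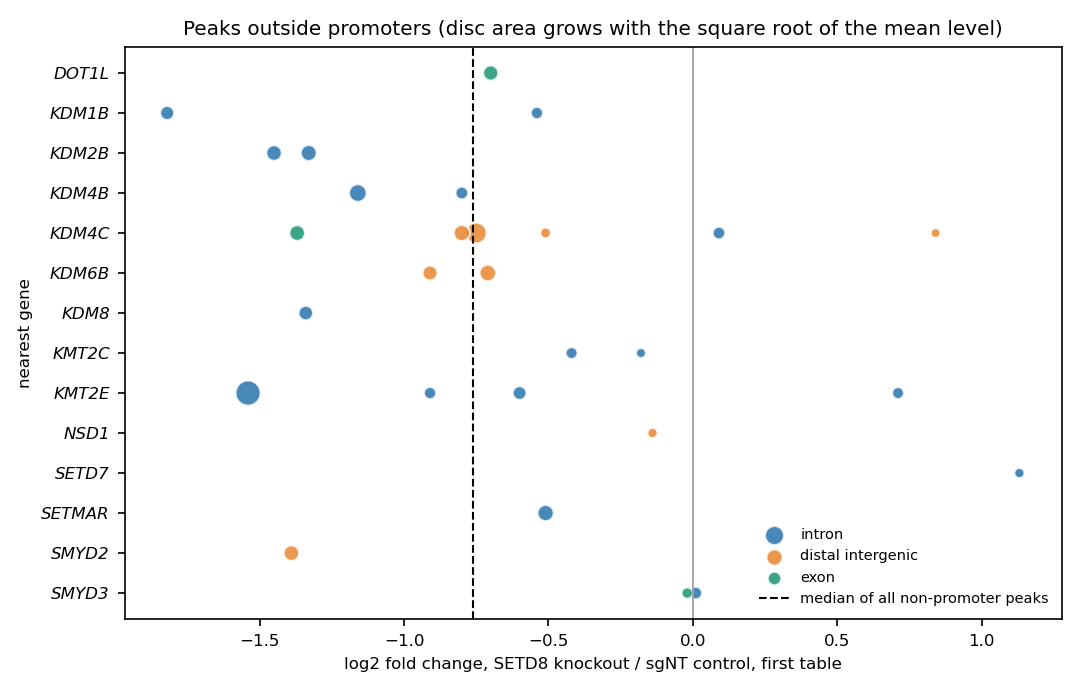
Log2 fold change (SETD8 knockout over sgNT control, first table) of the 28 peaks outside promoters, by nearest gene; colour gives the annotation class and disc area grows with the square root of the mean level. The dashed line is the median of all non-promoter peaks, -0.76; the 5 points right of 0 are small discs, and the largest disc, at KMT2E, is at -1.54.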

How the data were processed

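ATAC-seq of Kasumi-1 cells was analysed from 2 deposited tables. Per the submitters' processing notes, the tools were Bowtie2 and cutadapt, SAMtools, deepTools, ChIPseeker and MACS2 2.1.2, with build hg38. Their order and settings, read shifting, duplicate removal and scaling between libraries are not stated. Per peak, the authors deposited log2 levels, log2 fold changes, p-values and adjusted p-values. The first table's columns carry numbers for names and were identified by their place in the order that the second table names. Its direction was read from its file name, and 2 further unnamed value columns were not used.

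Second-table fold changes were computed as the knockout minus the control log2 level, which differed from the deposited ones by at most 0.01. Weak levels (under 25 reads) were whole reads within 0.005 on the log2 scale, 100.0% of 203 knockout values and, divided by 0.918, 100.0% of 144 control values. Counting intervals are exact (Clopper-Pearson, 95%) and cover counting error only. The strongest promoter peak stands for a gene. All 49 members matched the gene table of GRCh38.p14, and 38 of the 40 with a promoter peak had a RefSeq promoter sequence there. Because neither table gives counts of all 4 libraries, the planned edgeR test was not run, and no test of group differences was made. p-values would measure only the spread between these samples, which may be technical.

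Members with a promoter peak were all named, the lowest and highest of each of 7 role groups in full. Non-promoter peaks were named when lower by at least 1, above 0 or joined, and the 3 lowest and 3 highest partner genes were named. Members and lists were chosen with earlier results of these data known. Alternatives covered the choice of peak, promoter width, level, matching, overlap (50%), fold size, centring, and trends by level (20 bins) and region (5 Mb bins with at least 10 other peaks). Scripts were tested on simulated data. Python 3.11.15, numpy 2.4.6, pandas 2.3.3, scipy 1.17.1 and matplotlib 3.10.9 were used.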

Additional observations from a re-analysis of the deposited data

How the results depend on the processing

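Of 39 recomputed values, 36 kept their sign or came to 0 and moved by under 0.1 on the log2 scale, or by under 1.5 times for counts. The exceptions were counts of members lower by at least 1. At a 1.5-fold change the first-table count was 32 of 40. With fold changes centred on the median of all peaks it was 0 for the first table, and for the second also 0. Shares of all genes at these settings were not computed. The upper first-table quartile over all genes (-0.68) was already more than 1.5-fold lower, so most genes passed that threshold too. After centring most genes did not pass. Their lower quartiles, -1.19 (first table) and -1.44 (second), lay less than 1 below the all-peak medians, -0.87 and -1.23. The counts of 32 and 0 alone do not set the members apart. The difference between members and all genes stayed between 0.16 and 0.19 in the second table under the alternatives run, and between -0.04 and 0.00 in the first. No paired analysis was possible because the columns of the first table are not tied to numbered libraries. For the same reason no library could be left out in turn. The second table has 1 library per group, and the counting interval alone reaches 0.256 to either side at its median member.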

Other observations

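Of the 9 members without a promoter peak under their own name, 7 had a first-table peak within 3 kb of a start site that bore a neighbour's name, and 8 had a second-table peak there. These were found by position after the data were seen, through RefSeq start sites (for SETD1B, either end of the gene). The peak at the start of KDM7A, a JmjC demethylase, was named after KDM7A-DT. It stood at -1.91 in the authors' first deposited table and at -1.47 (-1.76 to -1.19) in the second, with 137 knockout and 380 control reads. At PRMT5, the main writer of symmetric arginine dimethylation, the peak stood at -0.29 in the authors' first deposited table. It held 190 knockout reads and 568 control reads, a fold change of -1.58 (-1.82 to -1.34). The start of SETD2, the H3K36 trimethylase, was covered by a peak at -0.91 in the authors' first deposited table and at -0.82 (-1.05 to -0.60) in the second, with 254 knockout and 449 control reads. Peaks at SETD1B (-0.84), SETD3 (-0.76), SETDB2 (-1.09) and KDM5B (-1.07), those at SETD3 and KDM5B lying off the start, were named after RHOF, CCNK, CAB39L and PCAT6 in the authors' first deposited table. Their second-table values were -0.91, -1.35, -1.42 and -1.02. EHMT2 had a peak in the second table only, with 89 knockout and 189 control reads (-1.08, -1.46 to -0.72). NSD1 had none in either table. Against the second-table promoter median of -1.26, the peaks at EHMT2, KDM5B, SETD1B and SETD2 were above and those at KDM7A, PRMT5, SETD3 and SETDB2 below. The counting intervals at SETD1B and SETD2 lay wholly above it and that at PRMT5 wholly below. The second-table counts of members above the median given earlier leave these genes out.

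A list of 38 genes of partner subunits and related enzymes was set beside the members, and 32 had a promoter peak. Their median was -0.80 in the first table, with 11 of 32 lower by at least 1 (43.3% of all genes were), and -1.29 over 27 genes in the second, with 12 above the promoter median of -1.26 and 24 lower by at least 1 (83.4% of all genes were). None passed an adjusted p of 0.05 in the authors' deposited tables. The lowest was CBX1, which encodes an HP1 protein that reads H3K9 methylation, at -1.99 in the authors' first deposited table. It held 239 knockout reads and 885 control reads, a fold change of -1.89 (-2.10 to -1.68). The other peaks of its 5 Mb bin on chromosome 17 had medians of -1.16 and -1.61. ZNF644 (-1.25), a partner of EHMT1 and EHMT2, and ASH2L (-1.14), a core subunit of H3K4 methyltransferase complexes, followed in the authors' first deposited table, with second-table values of -1.15 and -1.04. Highest were PSIP1 (-0.31), RBBP5 (-0.29) and GFI1 (-0.24) in the authors' first deposited table, of which only RBBP5 joined a second-table peak, at -1.37.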
